A study of Mus musculus with 8 samples.

Results

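The 10 genes described here encode the core of store-operated calcium entry and the calcium channels and pumps of the endoplasmic reticulum (ER). They are the pore-forming subunits Orai1, Orai2 and Orai3, the ER calcium sensors Stim1 and Stim2, the inositol trisphosphate (IP3) receptors Itpr1, Itpr2 and Itpr3, and the ER calcium pumps Atp2a2 (SERCA2) and Atp2a3 (SERCA3). They were picked out by symbol as a functional group, with a rule that uses no measured value but with earlier results of these data known, and all 10 were found among the 23183 genes of the count files and were among the 12239 genes tested. Bulk mRNA sequencing was performed on 8 libraries of cultured group 2 innate lymphoid cells (ILC2s) from the lungs of wild-type C57BL/6 mice 6 to 10 weeks old that had been treated with IL-33. All cells were grown with IL-2, IL-7 and IL-33 at 10 ng/mL each. In 4 libraries the ILC2s had received 5 µM Yoda1, a small-molecule agonist of the mechanosensitive cation channel Piezo1, for 3 hours, and in 4 they had received the vehicle, 0.1% DMSO. The sources do not state whether the libraries of a group came from separate mice or cultures, so p-values measure only the spread between these libraries, which may be technical.

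In store-operated calcium entry, a receptor signal activates phospholipase C, which makes IP3, and IP3 opens its receptors in the ER membrane. As the store empties, STIM proteins sense the fall in luminal calcium, gather where the ER meets the plasma membrane and open ORAI channels, through which calcium enters from outside. SERCA pumps return cytosolic calcium to the ER, and plasma membrane pumps and exchangers expel it. In lymphocytes this route feeds the calcineurin and NFAT pathway and with it cytokine transcription. Piezo1 passes calcium directly across the plasma membrane, and the comparison of Yoda1-treated with DMSO-treated ILC2s asks whether the transcripts of the store-operated machinery differed after its activation.

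Library totals ranged from 13435521 to 18216729 counts in DMSO-treated ILC2s and from 12438009 to 19534653 in Yoda1-treated ILC2s, so that 1 count was worth 0.0514 to 0.0807 normalized counts per 1000000 counts (CPM). All 11 ILC2 markers were detected. Their summed level, with Il13, Il2ra and Il5 the largest parts, was 16691 to 17314 CPM with DMSO and 18992 to 19385 CPM with Yoda1. Of the 11, 6 were higher after Yoda1 and none lower, whereas 6.04% of all genes tested were higher. Gata3, Il7r, Il2ra, Rora and Klrg1 overlapped between the groups. Markers of T cells summed to between 70.5 and 86.1 CPM in all 8 libraries, with overlapping groups. B cell markers summed to 5.32 to 7.20 CPM with overlapping groups, mainly from Cd79b, while Pax5 was at 0 and Ms4a1 had at most 3 counts in any library. Mast cell and basophil markers, mainly Kit, summed to 76.0 to 89.3 CPM with overlapping groups. Macrophage and monocyte markers summed to 6.57 to 8.57 CPM with overlapping groups, mainly from Itgam and Cd68, while Csf1r, Lyz2 and Mrc1 had at most 3 counts. The list of epithelial and stromal markers summed to 213 to 227 CPM with overlapping groups, nearly all from Pecam1. Epcam reached at most 2.26 CPM and Col1a1 at most 0.375 CPM in any library, and Sftpc, which marks lung epithelium, was at 0. The sum of the 5 NK cell markers, made up mainly of Prf1, was 424 to 472 CPM with DMSO and 475 to 499.8 CPM with Yoda1. Of the 5, 2 were higher after Yoda1 and none lower. Klrb1c ran from 5.42 to 6.65 CPM with DMSO and from 4.87 to 5.70 CPM with Yoda1. Ncr1 ran from 3.44 to 5.88 CPM with DMSO and from 2.92 to 4.78 CPM with Yoda1. Klrb1c, Ncr1 and Klra8 each overlapped between the groups. The sum did not overlap between the groups, and neither its part in the results that follow nor that of the ILC2 markers was tested. In bulk libraries, fewer cells of a type and less RNA per cell cannot be told apart.

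Every family of the machinery was expressed in DMSO-treated ILC2s, and the SERCA pumps led over merged exon length. Levels of different genes were compared as CPM per kilobase of merged annotated exons. Atp2a2, the housekeeping ER pump of most cells, reached 74.5 ± 1.77 CPM per kb (SD, n = 4). This was percentile 95.4 of the 11776 genes tested that had an annotated length. Atp2a3, a SERCA isoform typical of blood cells, stood at 39.8 ± 0.789 CPM per kb (SD, n = 4), at percentile 90.3. On this length the pump genes did not overlap each other or any other member.

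Of the IP3 receptors, Itpr1 and Itpr2 came next after the pumps, and Itpr3 took place 8. Itpr1 stood at 25.0 ± 1.54 CPM per kb, Itpr2 at 19.4 ± 1.67 and Itpr3 at 10.9 ± 0.923 (SD, n = 4 each). Among the channel subunits Orai2 was highest, at 17.5 ± 0.674 CPM per kb, while Orai1, the subunit known for most store-operated current in T cells, stood at 13.1 ± 1.10 and Orai3 at 10.3 ± 1.18 (SD, n = 4 each). Of the sensors, Stim2, which responds to small falls in luminal calcium, stood at 14.4 ± 0.620 CPM per kb and Stim1, the main activator of ORAI channels, at 7.89 ± 0.323 (SD, n = 4 each). Along the order of the 10 levels, the neighbours Itpr2 and Orai2, Stim2 and Orai1, Orai1 and Itpr3, and Itpr3 and Orai3 overlapped between DMSO libraries. The place of Stim1 at the foot of this order depended on the length used: divided by its longest annotated transcript, Stim1 moved up to place 6, at 18.7 CPM per kb, above both Orai1 and Stim2. On the same length Itpr1 reached 46.3 CPM per kb and took place 2, but overlapped Atp2a3, at 45.6, between DMSO libraries.

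**Figure D1:**
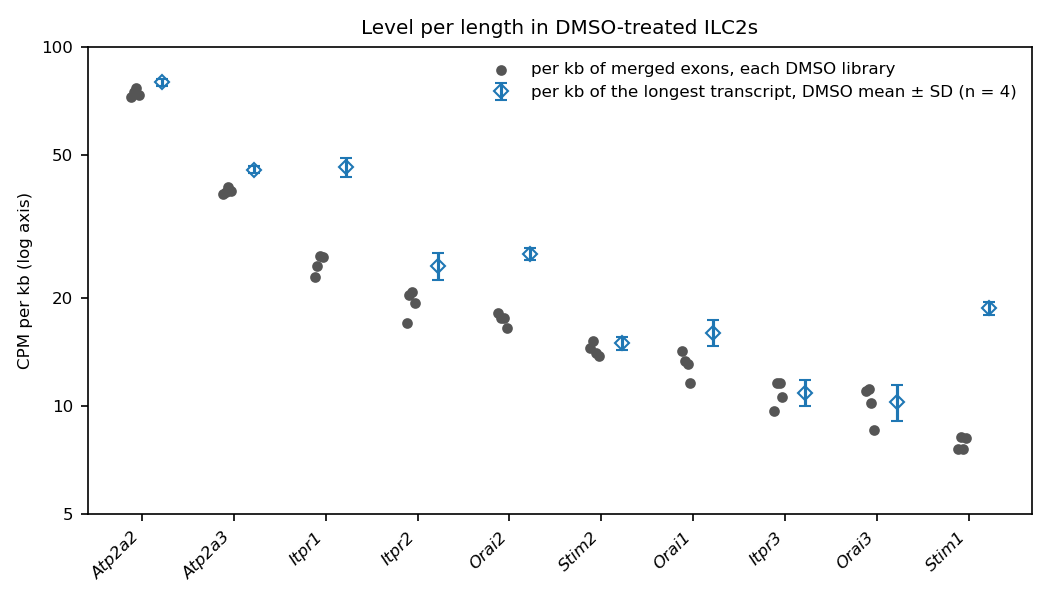
Level of each gene in DMSO-treated ILC2s, in CPM per kilobase on a log axis, ordered from left to right by the mean over merged exons. Grey points are the 4 DMSO libraries over merged exon length, and open blue diamonds with bars are the mean and SD (n = 4) over the longest annotated transcript. Atp2a2 lies highest on both lengths, and Stim1 moves furthest between them, from 7.89 to 18.7 CPM per kb.

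After Yoda1, 3 of the 10 genes passed the quasi-likelihood test of edgeR, with p-values adjusted by the Benjamini-Hochberg method over the 12239 genes tested. Atp2a2 and Orai1 rose, by 1.12-fold and 1.15-fold, and Atp2a3 fell to 0.923 of its DMSO level. Over all genes tested, 10.9% passed, with 6.04% higher and 4.84% lower, and no member changed by 2-fold or more. The groups did not overlap for the same 3 members, whereas 15.5% of all genes tested had non-overlapping groups. The median log2 fold change of the 10 members was 0.0071, beside -0.0053 for all genes tested. With upper-quartile scaling 505 genes were higher and 958 lower, instead of 739 and 592, and with library size alone 553 were higher and 809 lower. Among the members 1 was then higher, Atp2a2, and 1 lower, Atp2a3, under either scaling.

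**Figure D2:**
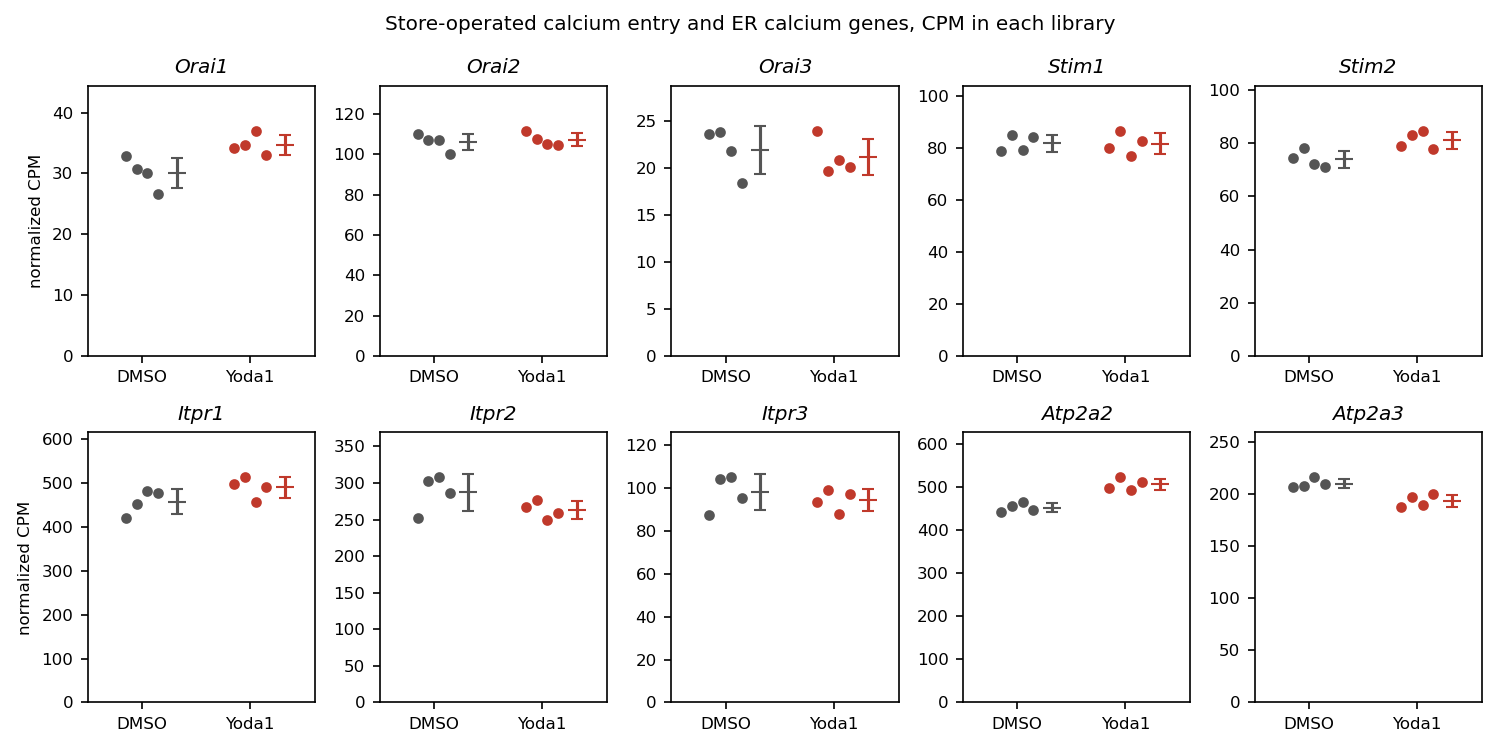
Normalized CPM of each gene in each library, on axes that start at 0. Grey points are the 4 DMSO libraries and red points the 4 Yoda1 libraries, in replicate order, and the bars beside them give the mean and SD. The groups separate for Atp2a2 and Orai1, which are higher with Yoda1, and for Atp2a3, which is lower.

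The SERCA genes moved in opposite directions. Atp2a2 (chr5:122453513-122502225, minus strand, mm10) was measured at 442, 456, 466 and 447 CPM in DMSO replicates 1 to 4 and at 499, 523, 494 and 512 CPM in Yoda1 replicates 1 to 4. Every Yoda1 library lay above every DMSO library. The mean of 453 ± 10.8 CPM rose to 507 ± 13.2 CPM (SD over 4 libraries), which is 0.16 on the log2 scale (SE 0.035, edgeR adjusted p = 0.00195). Atp2a2 passed under all 15 alternative fits, with log2 fold changes of 0.13 to 0.18. The 3 genes tested whose log2 CPM followed it most closely over the 8 libraries were N4bp1 (Pearson r = 0.986), Serinc5 (0.984) and Smpd4 (0.983). These libraries share the difference between the groups, and the correlation is given as a description.

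Atp2a3 (chr11:72961169-72993044, plus strand) was at 206, 208, 216 and 209 CPM in the DMSO libraries and at 188, 198, 189.7 and 199.8 CPM in the Yoda1 libraries. All 4 Yoda1 values lay below all 4 DMSO values. The mean of 210.0 ± 4.16 CPM fell to 194 ± 5.90 CPM (SD over 4 libraries), which is -0.12 on the log2 scale (SE 0.036, edgeR adjusted p = 0.0360). The call was lost when DMSO replicate 2, 3 or 4 was left out (edgeR adjusted p = 0.0672, 0.107 and 0.0645) and when Yoda1 replicate 1 or 3 was left out (0.129 and 0.0975).

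The genes were next compared within libraries, where scaling cancels, although a ratio does not show which of them moved. Because each gene alone separated the groups, in opposite directions, their ratio had to separate them, and its p-value adds no further support. Counts of Atp2a3 per count of Atp2a2 ran from 0.457 to 0.469 in the DMSO libraries and from 0.376 to 0.390 in the Yoda1 libraries, a difference of -0.28 on the log2 scale. The groups were far apart relative to their own width. With 4 libraries a group, the two-sided exact permutation p was 0.0286, the smallest this design allows, and 0.04 after Benjamini-Hochberg adjustment over the 7 ratios computed.

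Of the ORAI genes, which encode the calcium pore, Orai1 passed the test and Orai2 and Orai3 did not. Orai1 (chr5:123015074-123030456, plus strand) was at 32.8, 30.7, 30.1 and 26.7 CPM in the DMSO libraries and at 34.1, 34.6, 37.0 and 33.1 CPM in the Yoda1 libraries. The lowest Yoda1 library lay just above the highest DMSO library. The mean of 30.1 ± 2.54 CPM rose to 34.7 ± 1.64 CPM (SD over 4 libraries), which is 0.20 on the log2 scale (SE 0.063, edgeR adjusted p = 0.0362). It rested on 361 to 643 counts per library. This call stood close to the threshold: the adjusted p was 0.0565 with DESeq2, and with edgeR 0.0608 with library size alone and 0.0787 with upper-quartile scaling. It was also lost without DMSO replicate 2, 3 or 4 (edgeR adjusted p = 0.0680, 0.0719 and 0.133) and without Yoda1 replicate 1, 2 or 3 (0.0644, 0.0611 and 0.105), while the log2 fold change stayed between 0.15 and 0.24 over all alternatives.

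Orai2 (chr5:136147459-136170713, minus strand), a subunit that forms mixed channels with Orai1, was at 110.2, 107, 107 and 100.4 CPM with DMSO and at 112, 108, 105 and 105 CPM with Yoda1. The groups overlapped almost completely, and the log2 fold change was 0.015 with a 95% interval of -0.069 to 0.098. Orai3 (chr7:127769815-127775150, plus strand), a subunit found in mammals, was at 23.7, 23.9, 21.9 and 18.4 CPM with DMSO and at 24.0, 19.7, 20.9 and 20.2 CPM with Yoda1. Its groups overlapped too, with a log2 fold change of -0.068 and a 95% interval of -0.23 to 0.096. Within libraries, counts of Orai1 per count of Orai2 ran from 0.266 to 0.298 with DMSO and from 0.306 to 0.351 with Yoda1, and the two-sided exact permutation test gave p = 0.0286 (adjusted 0.04). Because Orai1 alone separated the groups and Orai2 hardly differed, this ratio largely repeats the Orai1 result and is not independent support for it. Orai1 per count of Orai3 overlapped between the groups, at 1.28 to 1.45 with DMSO and 1.42 to 1.77 with Yoda1, and did not pass (exact permutation p = 0.0571).

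RefSeq promoter sequence of the GRCm38.p6 assembly was matched for 8 of the 10 members. The 250 bases before the start are shown for Orai1 and Atp2a3, the members with an entry whose transcript level differed after Yoda1. They are written 5′ to 3′, and capitals mark matches on either strand to the letters searched.
Orai1, chr5:123014824-123015073, plus strand: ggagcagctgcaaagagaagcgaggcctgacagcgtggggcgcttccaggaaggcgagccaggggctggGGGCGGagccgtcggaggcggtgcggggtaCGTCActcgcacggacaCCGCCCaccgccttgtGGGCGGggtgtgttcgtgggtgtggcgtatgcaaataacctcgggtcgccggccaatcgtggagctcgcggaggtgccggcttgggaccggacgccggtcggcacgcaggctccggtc
Atp2a3, chr11:72960919-72961168, plus strand: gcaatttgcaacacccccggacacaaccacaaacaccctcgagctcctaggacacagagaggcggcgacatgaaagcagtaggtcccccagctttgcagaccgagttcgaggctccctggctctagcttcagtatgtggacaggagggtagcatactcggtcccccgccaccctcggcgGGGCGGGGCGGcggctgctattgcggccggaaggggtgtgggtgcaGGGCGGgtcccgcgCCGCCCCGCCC
The letters searched were GGAAA (the NFAT core), TGACGTCA (the cAMP response element, CRE) and TGACG (its core, contained in it), TGACTCA and TGAGTCA (AP-1), GCGTGGGCG and GCGGGGGCG (EGR, the latter overlapping the GC box) and GGGCGG (the GC box). The Orai1 window held 3 GC boxes and 1 CRE core, read on the minus strand 151 to 147 bases before the start, and the Atp2a3 window held 5 GC boxes. A GC box was found in all 8 member promoters, beside 32.7% of 32851 promoters of this length. The share of G and C in the 8 windows ran from 57.2% to 78.4%, and the comparison was not adjusted for it. The NFAT core was found in 2 of the 8, those of Orai2 and Orai3, beside 55.6% of all promoters. The CRE core was found in 3 of the 8 (Orai1, Orai2 and Stim1) beside 17.8%, and EGR in 2 of the 8 (Stim1 and Itpr3) beside 3.06%. The full CRE and AP-1 were in none of the 8, beside 1.55% and 4.46%. These matches describe letters in the windows and are not measured binding sites.

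Neither sensor passed the test. Stim1 (chr7:102267806-102437319, plus strand) was at 78.7, 84.9, 79.1 and 84.4 CPM with DMSO and at 80.2, 86.6, 76.9 and 82.9 CPM with Yoda1. The values interleaved, and the log2 fold change was -0.00032 with a 95% interval of -0.092 to 0.092. Stim2 (chr5:53998499-54121057, plus strand) was at 74.4, 78.2, 72.3 and 70.9 CPM with DMSO and at 79.0, 82.9, 84.6 and 77.9 CPM with Yoda1. Only DMSO replicate 2 reached into the Yoda1 range. The log2 fold change of Stim2 was 0.13 (SE 0.045, edgeR adjusted p = 0.0574), and without DMSO replicate 2 it was 0.16 (edgeR adjusted p = 0.0412). Under the other 14 alternatives Stim2 did not pass (edgeR adjusted p up to 0.151, without DMSO replicate 4). Counts of Stim1 per count of Stim2 ran from 1.06 to 1.19 with DMSO and from 0.910 to 1.06 with Yoda1, and overlapped (exact permutation p = 0.0571).

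The IP3 receptors, through which the store releases calcium, did not pass one by one, while the count ratios between them separated these libraries by group. Itpr1 (chr6:108213096-108551109, plus strand) was at 420.2, 451, 481 and 478 CPM with DMSO and at 498, 512, 457 and 491 CPM with Yoda1. Its groups overlapped through Yoda1 replicate 3. The log2 fold change was 0.098 (SE 0.042, edgeR adjusted p = 0.137), and 0.13 without Yoda1 replicate 3 (edgeR adjusted p = 0.0445). Under the other 14 alternatives Itpr1 did not pass (edgeR adjusted p up to 0.331, without DMSO replicate 1). Itpr2 (chr6:146108299-146502223, minus strand) was at 252, 302, 307 and 286 CPM with DMSO and at 267, 277, 249 and 258 CPM with Yoda1. The overlap came from DMSO replicate 1, which lay below 3 of the 4 Yoda1 libraries. The log2 fold change was -0.13 (SE 0.052, edgeR adjusted p = 0.138), and -0.18 without DMSO replicate 1 (edgeR adjusted p = 0.000986). With no filter on low counts Itpr2 also passed (edgeR adjusted p = 0.0169). Under the other 13 alternatives it did not pass (edgeR adjusted p up to 0.307, without DMSO replicate 3).

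Itpr3 (chr17:27057304-27122223, plus strand) was at 87.4, 104, 105 and 95.6 CPM with DMSO and at 93.6, 99.2, 87.8 and 97.3 CPM with Yoda1. These groups overlapped, with a log2 fold change of -0.054 and a 95% interval of -0.16 to 0.054. Counts of Itpr1 per count of Itpr2 ran from 1.49 to 1.67 with DMSO and from 1.83 to 1.90 with Yoda1, a log2 difference of 0.22. Itpr1 per count of Itpr3 ran from 4.31 to 4.99 and from 5.05 to 5.32, a log2 difference of 0.15. Itpr2 per count of Itpr3 ran from 2.89 to 2.99 and from 2.66 to 2.85, a log2 difference of -0.071. None of the 3 ratios overlapped between the groups, and each had a two-sided exact permutation p of 0.0286 (adjusted 0.04). In all, 5 of the 7 ratios passed, each at the smallest p this design allows, so their adjusted values stand or fall together. These 5 include Atp2a3 to Atp2a2, which had to separate. The IP3 receptor ratios are built from the same 3 genes, and each is fixed by the others. The share of other gene pairs whose ratio separates the groups was not computed, so these ratios have no background to be set against. Exons annotated on the opposite strand overlapped 2.58% of the exon length of Itpr3 (Itpr3os), 1.36% of Atp2a2, at most 0.988% of Itpr1 and 0.305% of Orai1, and the strand setting of the counting is not given in the sources used here.

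**Figure D3:**
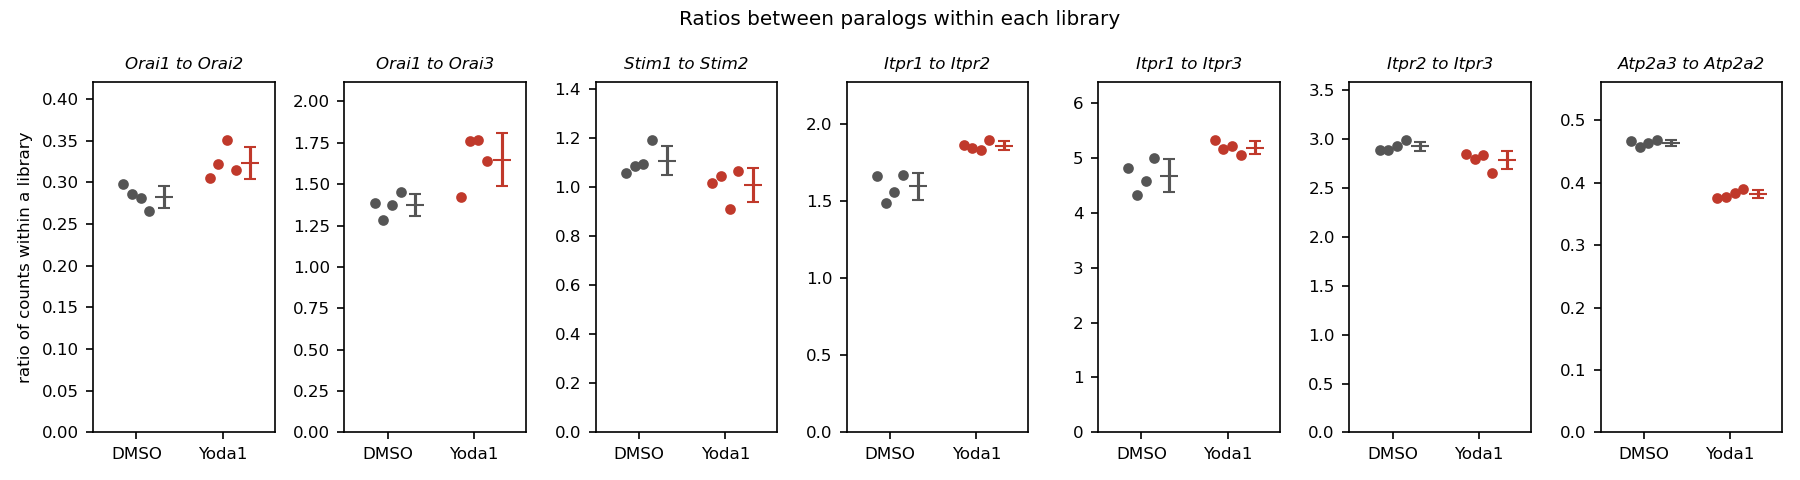
Ratios of counts between members of one family within each library, on linear axes that start at 0 and are not corrected for gene length. Grey points are DMSO libraries, red points Yoda1 libraries, and bars give the mean and SD (n = 4 each). The ratio of Atp2a3 to Atp2a2 falls from at least 0.457 to at most 0.390, and the ratios of Orai1 to Orai3 and Stim1 to Stim2 overlap between the groups.

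The genes around this core were followed in 8 lists with 105 members in the files, of which 74 were tested. Of these 5 rose and 4 fell, 12.2% of those tested, beside 10.9% of all genes. With upper-quartile scaling 2 were higher and 7 lower, and with library size alone 2 were higher and 4 lower.

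The smallest adjusted p among the listed genes belonged to calcium extrusion. Atp2b1, a plasma membrane calcium pump, rose from 257 ± 4.48 to 306 ± 7.91 CPM (SD over 4 libraries; log2 fold change 0.25, SE 0.035, edgeR adjusted p = 6.58e-06), without overlap between the groups, and passed under all 15 alternatives. Of the 9 genes on the list of extrusion and Golgi pumps 3 were tested, and the other 2 did not pass. The sodium-calcium exchangers Slc8a1, Slc8a2 and Slc8a3 had at most 3 counts in any library.

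On the production side of IP3, 1 of 7 genes tested fell and none rose. That gene was Plcg2, a phospholipase C coupled to immune receptors, which went from 89.7 ± 5.06 to 77.6 ± 1.54 CPM (SD over 4 libraries; log2 fold change -0.21, SE 0.044, edgeR adjusted p = 0.00195) and passed under all 15 alternatives. Of the 4 genes that remove IP3, 1 rose: Itpkb, a kinase that phosphorylates IP3, went from 61.3 ± 4.62 to 69.0 ± 2.81 CPM (SD over 4 libraries; log2 fold change 0.17, SE 0.051, edgeR adjusted p = 0.0301). The Itpkb call was lost with DESeq2 (adjusted p = 0.0531), with library size alone (edgeR, 0.0563), with upper-quartile scaling (0.0755) and when DMSO replicate 1, 3 or 4 (0.0946, 0.0668 and 0.0663) or Yoda1 replicate 1 or 2 (0.101 and 0.0809) was left out.

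Among 12 tested regulators of the IP3 receptors, 1 rose and 1 fell, and they were relatives. Ahcyl1, known as IRBIT, which binds IP3 receptors and competes with IP3, rose from 95.2 ± 4.39 to 106 ± 1.63 CPM (log2 fold change 0.15, edgeR adjusted p = 0.0144). Its paralog Ahcyl2 fell from 218 ± 6.27 to 196 ± 3.24 CPM (log2 fold change -0.15, edgeR adjusted p = 0.00486), and passed under all 15 alternatives. The Ahcyl1 call was lost without DMSO replicate 3 or Yoda1 replicate 4 (edgeR adjusted p = 0.0742 and 0.0585). Tespa1, a binding partner of IP3 receptors in lymphocytes, differed by 0.062 on the log2 scale and did not pass (edgeR adjusted p = 0.523).

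Of 10 tested modulators of STIM and ORAI, 1 rose and 2 fell. Esyt1, a tether between the ER and the plasma membrane, fell from 571 ± 11.6 to 524 ± 6.22 CPM (log2 fold change -0.12, edgeR adjusted p = 0.0138), a call lost without Yoda1 replicate 4 (0.0641). Homer1, a scaffold that binds IP3 receptors, rose from 9.34 ± 0.481 to 11.5 ± 0.877 CPM (log2 fold change 0.29, edgeR adjusted p = 0.0371). Asph, whose locus also encodes the ER proteins junctin and junctate, fell from 9.91 ± 1.34 to 7.56 ± 1.06 CPM (log2 fold change -0.37, edgeR adjusted p = 0.0322), with overlapping groups. Opposite-strand exons of Clvs1 cover 14.3% of the exon length of Asph. Neither of these low-level genes passed with DESeq2 (adjusted p = 0.0771 for Homer1 and 0.0537 for Asph), and Homer1 was lost with edgeR with library size alone (0.0538) or upper-quartile scaling (0.0608), and without DMSO replicate 1, 2 or 3 (adjusted p = 0.0663, 0.0969 and 0.0745) or Yoda1 replicate 1 or 2 (0.126 and 0.0651). Asph was lost with edgeR without DMSO replicate 2, 3 or 4 (adjusted p = 0.0787, 0.0741 and 0.111) or Yoda1 replicate 1, 3 or 4 (0.0925, 0.105 and 0.0644). Saraf, which limits store-operated entry once the store is full, went from 239 ± 7.11 to 254 ± 7.28 CPM and did not pass (log2 fold change 0.089, edgeR adjusted p = 0.115).

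Inside the ER, 1 of 17 tested calcium-binding and folding genes passed. Ero1l, an ER oxidase, rose from 1235 ± 24.3 to 1332 ± 24.3 CPM (log2 fold change 0.11, edgeR adjusted p = 0.0304). It was lost without DMSO replicate 2 or 3 (edgeR adjusted p = 0.0668 and 0.0900) or Yoda1 replicate 1, 2 or 4 (0.126, 0.0584 and 0.0757), and with library size alone (0.0863) or upper-quartile scaling (0.124). The calcium buffer Calr differed by 0.044 on the log2 scale and did not pass (edgeR adjusted p = 0.471) and the chaperone Hspa5, a marker of ER stress, by 0.082 (0.116). None of 9 tested SERCA regulators and other ER channels passed with edgeR, DESeq2 or limma-voom, and 0 of them had an unadjusted p under 0.05. The SERCA inhibitors Pln, Sln and Mrln and the ryanodine receptor Ryr2 had at most 2 counts in any library. Of 12 mitochondrial calcium genes 0 passed with edgeR, DESeq2 or limma-voom, with 3 at an unadjusted p under 0.05 in edgeR, and the uniporter pore Mcu differed by 0.039 on the log2 scale and did not pass (edgeR adjusted p = 0.762).

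**Figure D4:**
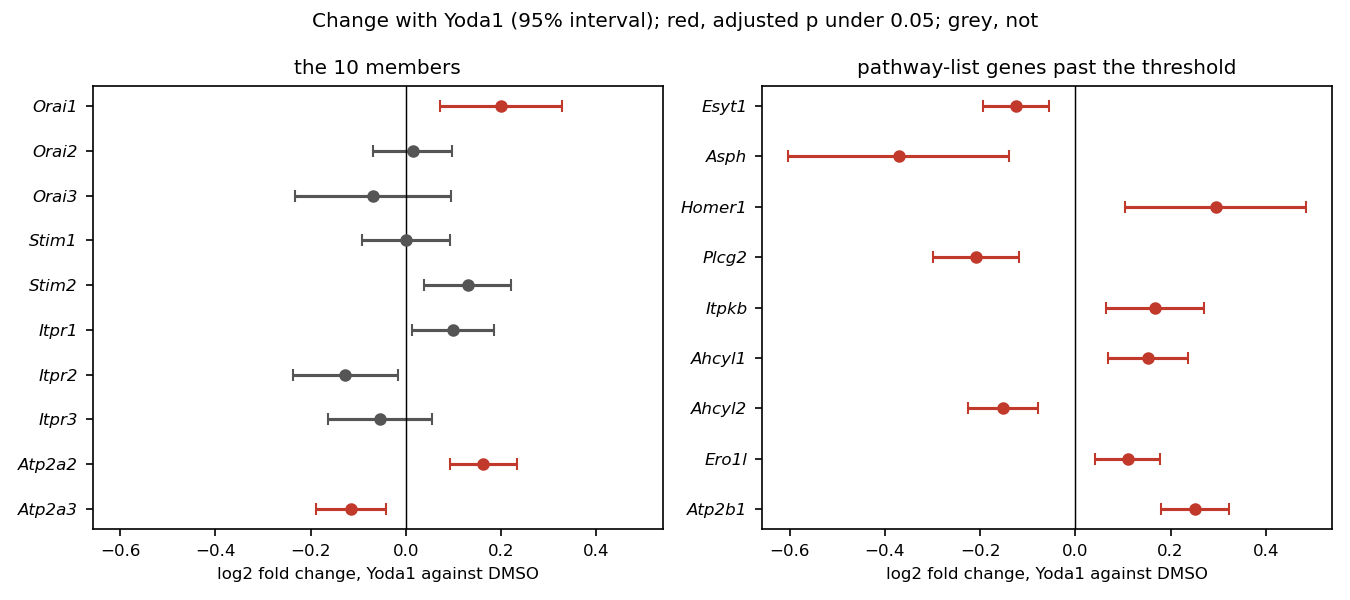
Log2 fold change of Yoda1-treated against DMSO-treated ILC2s with its 95% interval, for the 10 members (left) and for the 9 genes of the surrounding lists that passed the test (right). Red marks an edgeR adjusted p under 0.05 and grey the others. The members range from -0.13 for Itpr2 to 0.20 for Orai1, and Atp2b1, at 0.25, lies well clear of 0.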

How the data were processed

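Poly(A)-selected RNA was sequenced from 8 libraries, 4 per treatment, grouped by their labels. The deposited files hold raw counts per gene symbol, which the authors made from reads. The submitters' processing notes name TopHat and mm10, whereas the study's methods name BBMap and Cufflinks, and the counter, annotation and strand setting are not given in the sources used here. Genes were kept with filterByExpr (minimum count 10, minimum total 15), scaled by TMM and tested with edgeR 4.0.16's robust quasi-likelihood test and Benjamini-Hochberg adjustment, with adjusted p under 0.05 as the threshold. CPM uses the TMM-scaled totals. Intervals of fold changes come from the edgeR fit and include the spread between libraries. Exon lengths came from GENCODE M21 on GRCm38 for 11776 of 12239 genes tested (96.2%). Ratios between members were tested by exact permutation. Alternatives were DESeq2 1.42.0, limma-voom (limma 3.58.1), other scalings and filters, a replicate block and leaving out each library. The fits of Yoda1 against DMSO were tested on simulated counts, and the ratio, level and promoter steps were not. No bar was set there on recovering changes as small as those of the members. All replicates differed by more than sampling noise (chi-square per gene 2.03 to 6.94).

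The members and lists were chosen with earlier results of these data known. Besides the members, up to 3 called genes per list with the smallest adjusted p are named, plus Saraf, Itpkb, Tespa1, Calr, Hspa5, Mcu and Atp2b1 whatever their values, and the 3 genes most correlated with the called member of smallest adjusted p.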

Additional observations from a re-analysis of the deposited data

How the results depend on the processing

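The direction and call of Atp2a2 held under all 15 alternatives. Leaving out 1 library gave 893 to 1484 genes called (main 1331), 519 to 807 higher and 367 to 677 lower, 1 to 4 members called (main 3), 1 to 2 higher and 0 to 2 lower, and 5 to 9 listed genes called (main 9), 2 to 5 higher and 2 to 5 lower. Upper-quartile scaling gave 958 genes lower (main 592), 1 member higher (main 2), and 2 listed genes higher (main 5) and 7 lower (main 4). DESeq2 gave 1 member and 3 listed genes higher, and library size alone gave 1 and 2. Without the filter on low counts 2 members were lower (main 1). The cause of these shifts was not tested.

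Orai2, which was not called, turned to -0.0070 with library size alone, to -0.016 with upper-quartile scaling, to -0.010 without DMSO replicate 4 and to -0.0036 without Yoda1 replicate 1. Without 1 library Orai2 ranged up to 0.032 (without DMSO replicate 1) and Stim1 down to -0.030 (without Yoda1 replicate 2). Stim1, near 0 and not called, turned to 0.0014 with DESeq2, 0.00046 with at least 10 counts in every library, 0.00049 with limma-voom and 0.0015 with no filter. It also turned to 0.019, 0.014, 0.0080 and 0.028 without DMSO replicate 2, DMSO replicate 4, Yoda1 replicate 1 and Yoda1 replicate 3. Per kilobase of the longest transcript, levels were 16.0 for Orai1, 26.6 for Orai2, 18.7 for Stim1, 46.3 for Itpr1, 24.6 for Itpr2, 79.8 for Atp2a2 and 45.6 for Atp2a3.

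Same-numbered libraries did not deviate together (r = -0.0277 to 0.0711), so the numbers were not taken to pair samples. With the replicate block 966 genes were called, 548 higher and 418 lower. Of the members 2 were higher and 0 lower, with Atp2a3 at an edgeR adjusted p of 0.0775, and of the listed genes 3 were higher and 3 lower, with Esyt1 at 0.0509, Homer1 at 0.0658 and Ero1l at 0.0932. In each of the 7 ratios, 4 of 4 same-numbered pairs went the same way, but 4 pairs cannot give an exact permutation p below 0.125.

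Leaving out 1 library left the log2 difference of the ratios at -0.29 to -0.27 for Atp2a3 to Atp2a2, 0.19 to 0.24 for Itpr1 to Itpr2 and 0.15 to 0.22 for Orai1 to Orai2, but 3 against 4 libraries cannot give an exact p below 0.0571. Among the 9 listed genes called, Asph and Homer1 rested on the fewest counts, at 86 to 210 per library.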
